A study of Mus musculus with 18 samples.

Results

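BMAL1 binding sites are described at 10 genes of the Kruppel-like factor family: Klf2, Klf3, Klf4, Klf6, Klf9, Klf10, Klf11, Klf12, Klf13 and Klf15. A site belonged to a gene when the centre of its peak lay inside the gene or within 10 kb of either end, in the GRCm38 assembly. By this rule 45 of the 11366 peaks of the series lay at 7 of the 10 genes, and they merged into 21 of the 9005 bound regions of the series.

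ChIP-seq, which sequences the DNA that an antibody brings down with its protein, was run for BMAL1 on 3 organs of wild type C57BL/6 mice. The mice were 3 to 6 months old, were kept on a cycle of 12 h light and 12 h dark, fed and watered freely, and were sampled at zeitgeber time 6. Liver, kidney and heart each had 3 ChIP and 3 input libraries, 18 in all, and the tissues came from the same 3 animals. The antibody was an affinity-purified chicken serum against the N-terminal domain of mouse BMAL1. The authors deposited 1 peak list per tissue, called on all replicates together, with 4813 peaks in liver, 4034 in kidney and 2519 in heart. No value per animal was used here, so nothing below carries an error between mice and no test was made. The score of a peak (column of whole numbers, median 40, 28 and 25 in the liver, kidney and heart lists) has no stated scale, so scores and ranks are read within a list only. Rank 1 is the highest score of a list, and tied peaks share a rank. A gene without a peak in a list is one that passed no threshold there, which does not show that BMAL1 was absent, and the depth behind each list is unknown. For the 3 inputs titled as heart, one label field reads kidney, so sharing is also given for liver and kidney alone.

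Kruppel-like factors are zinc-finger transcription factors that bind GC-rich sequences and CACCC boxes and that can activate or repress their targets. Several of them link the circadian clock to other pathways: Klf9 responds to glucocorticoid and thyroid hormone, Klf10 and Klf11 belong to the group induced by transforming growth factor beta, and Klf15 controls amino acid breakdown and cardiac repolarisation. BMAL1 is the clock protein that, paired with CLOCK, binds E-boxes (CACGTG) and switches on genes in a daily rhythm.

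Promoter sequence shows what letters lay under the peaks at the start sites, for the parts of those peaks inside the promoter windows. RefSeq promoter windows of GRCm38.p6 (250 bases before the start site and 50 after) were matched for 9 of the 10 genes, all except Klf10. The Klf12 window belongs to a start site inside the gene (100149796, minus strand), short of the gene end of higher coordinate (100285891). The sequence at that end was not searched. Shown here are the windows from 250 bases before the start site to 3 bases after it, 5′ to 3′ in the direction of the gene, with each canonical E-box in capitals. Klf15 and Klf11 are shown because they hold E-boxes under peaks. Klf6 and Klf4 are shown because they hold an E-box but no peak overlapped these windows. Klf9 is shown because peaks of every tissue overlapped its window, which holds no canonical E-box. That window covers only 138, 49 and 59 bp of its liver, kidney and heart peaks, so most letters under the kidney and heart peaks are not shown.
Klf15, chr6:90462326-90462578, plus strand: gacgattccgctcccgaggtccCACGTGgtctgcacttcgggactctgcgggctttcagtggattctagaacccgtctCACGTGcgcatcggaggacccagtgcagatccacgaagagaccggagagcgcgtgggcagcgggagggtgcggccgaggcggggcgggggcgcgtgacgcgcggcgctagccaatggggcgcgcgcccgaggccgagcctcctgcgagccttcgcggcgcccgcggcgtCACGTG
Klf11, chr12:24651121-24651373, plus strand: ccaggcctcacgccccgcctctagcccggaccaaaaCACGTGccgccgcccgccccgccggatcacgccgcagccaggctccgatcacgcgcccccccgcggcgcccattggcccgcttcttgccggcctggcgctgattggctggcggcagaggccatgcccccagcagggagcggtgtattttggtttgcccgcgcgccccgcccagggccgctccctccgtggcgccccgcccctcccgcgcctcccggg
Klf9, chr19:23140976-23141228, plus strand: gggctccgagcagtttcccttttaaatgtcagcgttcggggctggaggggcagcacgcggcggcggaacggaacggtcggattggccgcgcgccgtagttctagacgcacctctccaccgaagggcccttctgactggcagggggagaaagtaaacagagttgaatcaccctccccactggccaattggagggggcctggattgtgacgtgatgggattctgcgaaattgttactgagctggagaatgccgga
Klf6, chr13:5861239-5861491, plus strand: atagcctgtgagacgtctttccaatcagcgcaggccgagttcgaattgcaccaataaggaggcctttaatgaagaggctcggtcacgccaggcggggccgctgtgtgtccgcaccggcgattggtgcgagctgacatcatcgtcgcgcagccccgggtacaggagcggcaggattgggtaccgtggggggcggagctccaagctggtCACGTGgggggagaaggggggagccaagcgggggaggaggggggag
Klf4, chr4:55532473-55532725, minus strand: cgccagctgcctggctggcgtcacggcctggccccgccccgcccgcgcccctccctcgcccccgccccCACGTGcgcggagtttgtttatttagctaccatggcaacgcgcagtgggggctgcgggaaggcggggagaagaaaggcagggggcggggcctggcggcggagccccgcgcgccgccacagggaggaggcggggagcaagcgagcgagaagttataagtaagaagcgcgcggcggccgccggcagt

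BMAL1 peaks lay at most of the 10 genes in each tissue, and 6 of the genes had a peak in every list. Liver peaks lay at 6 of the 10 genes, against 18.1% of 21887 protein-coding genes by the same rule. Kidney peaks lay at 6 of 10, against 18.0%. Heart peaks lay at 7 of 10, against 11.5%. Klf3, Klf9, Klf10, Klf11, Klf13 and Klf15 had a peak in every list, which held for 4.35% of all protein-coding genes. All of these except Klf3 had a region common to the 3 tissues, which held for 3.09%. The median length of all 10 genes was 19.2 kb, against 17.2 kb for all protein-coding genes. That of the 7 bound genes was 26.9 kb, against 28.2 kb for the 6709 protein-coding genes with a peak in any list. The family members were chosen with earlier results of these lists known, so these shares describe the genes and are not evidence of enrichment.

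Many of the sites were shared between tissues. Of the 21 regions, 9 had a peak in all 3 tissues (42.9%), against 5.76% of the 9005 regions of the series. A further 6 were found in 2 tissues and 6 in 1 tissue. The 6 regions in 2 tissues comprised 3 in liver and kidney, 2 in liver and heart and 1 in kidney and heart. The single-tissue regions comprised 4 in liver, 1 in kidney and 1 in heart. Without the heart list, 20 regions were left, of which 12 (60.0%) had both a liver and a kidney peak. Over the whole liver and kidney lists this share was 20.1% of 7369 regions. Where lists shared a region, the peak centres lay between 1 and 76 bp apart (median 21 bp, 15 regions), less than the width of a peak, which was 242, 188 and 198 bp in the liver, kidney and heart lists.

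**Figure D1:**
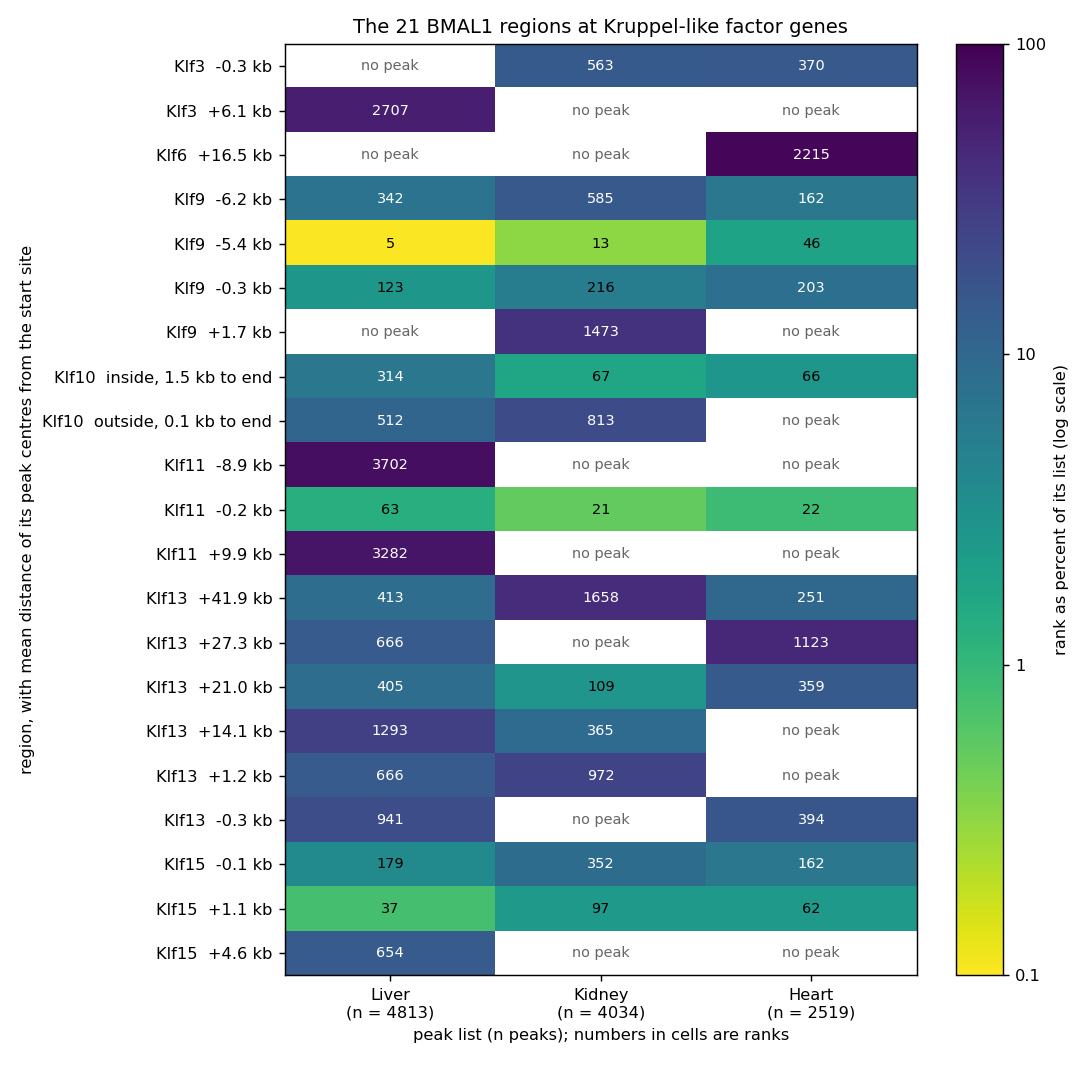
Each row is 1 of the 21 regions, named by its gene and the mean distance of its peak centres from the start site in kb (for Klf10, from the nearer gene end), and each column is a peak list; the number in a cell is the rank of the peak and the colour its rank as a percent of the list, on a log scale. The Klf9 region at -5.4 kb ranked 5, 13 and 46 in liver, kidney and heart, and the 9 regions filled in every column belong to Klf9, Klf10, Klf11, Klf13 and Klf15.

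Member peaks stood high in their lists. Of 18 liver peaks, 9 (50%) were in the top 10% of the list, as were 8 of 14 kidney peaks (57.1%) and 8 of 13 heart peaks (61.5%). The median rank was 462.5 of 4813 in liver, 358.5 of 4034 in kidney and 203 of 2519 in heart. In liver the 9 peaks shared by all tissues ranked from 5 to 413 (median 179), the 5 found in 2 tissues from 512 to 1293 (median 666) and the 4 liver-only peaks from 654 to 3702, so the last 2 ranges overlapped. In kidney the 9 shared peaks ranked from 13 to 1658 (median 109), the 4 found in 2 tissues from 365 to 972, and the kidney-only peak was at 1473, above the lowest shared peak. In heart the 9 shared peaks ranked from 22 to 359, the 3 found in 2 tissues from 370 to 1123, and the heart-only peak was at 2215. Over the whole liver list the medians of peaks in 3, 2 and 1 tissues were 465, 1480 and 2961. The same medians were 373, 1473 and 2591 in the whole kidney list and 291, 723 and 1624 in the whole heart list.

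Klf9, a repressor that restrains proliferation and follows glucocorticoid signalling, held the best-ranked site of the family in liver and kidney. Its strongest site lay 5.39 kb upstream of the start site (chromosome 19, 23135702 to 23135943 in the liver list). That site scored 315 in liver (rank 5), 236 in kidney (rank 13) and 156 in heart (rank 46). The 3 peak centres lay within 17 bp of each other. A second site stood 0.845 kb further upstream, at 6.24 kb (23134881 to 23135122 in liver), with scores of 112, 61 and 93 and ranks of 342, 585 and 162 in liver, kidney and heart. Both upstream sites lay inside the long noncoding RNA gene 2410080I02Rik, and Klf9 was the protein-coding gene nearest to them. Another site, 0.27 kb upstream, reached into the promoter window printed above (23140872 to 23141113 in liver). It scored 157, 98 and 84 and ranked 123, 216 and 203. In every list the 5.39 kb site was the highest of the 3. The site at the start ranked above the 6.24 kb site in liver and kidney and below it in heart. Kidney alone had a further peak, 1.71 kb inside the gene (score 35, rank 1473). At least 3 liver peaks lay at 254 of 21887 protein-coding genes (1.16%), at least 4 kidney peaks at 50 (0.228%) and at least 3 heart peaks at 45 (0.206%).

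Klf11, a repressor that recruits SIN3A and is linked to insulin gene control, had a single strong site, at its start. The peak centres lay 0.179 kb upstream in liver, 0.187 kb in kidney and 0.197 kb in heart (chromosome 12, 24651072 to 24651313 in the liver list). Its liver peak scored 186 (rank 63), its kidney peak 211 (rank 21) and its heart peak 201 (rank 22). It was the best-ranked site of the family in heart, and 26 protein-coding genes had a better best rank there. The canonical E-box of its promoter, at position -214 from the start site, lay inside all 3 peaks, 33 bp from the centre of the liver peak, 25 bp from that of the kidney peak and 15 bp from that of the heart peak. A variant E-box (CACGCG) at -165 also lay inside all 3. Liver alone had further peaks, both in the lower 50% of its list: one 8.89 kb upstream (score 25, rank 3702) and one 9.92 kb downstream of the start, inside the gene (score 29, rank 3282).

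Klf15, which drives amino acid breakdown in liver and muscle and the potassium current of the heart, had 2 sites in all tissues, 1.23 kb apart. The stronger lay 1.14 kb downstream of the start site, inside the gene (chromosome 6, 90463585 to 90463826 in the liver list). It scored 216 in liver (rank 37), 133 in kidney (rank 97) and 139 in heart (rank 62), above the other site in every list. The second lay at the start site (90462334 to 90462575 in liver), which the heart peak covered and before which the liver and kidney peaks ended. This start site (90462576) lies inside the gene, which begins at 90461043, so the second site was also inside the gene. It had scores of 142, 78 and 93 and ranks of 179, 352 and 162. Its centres were the most spread of any shared region, at 0.122 kb upstream in liver, 0.0995 kb in kidney and 0.0455 kb in heart, a range of 76 bp. The window holds 3 canonical E-boxes, at -228, -172 and -3. The liver peak covered the first and the middle one, the kidney peak only the middle one and the heart peak only the one at the start site. All 3 peaks covered both variant E-boxes between them, at -123 and -82. At least 3 canonical E-boxes were present in 29 of 32851 promoter windows (0.0883%) and in 6 of the 272 windows overlapped by a peak in all 3 lists (2.21%). A further peak 4.57 kb downstream was found in liver only (score 86, rank 654), the highest of the 4 liver-only peaks of the family.

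Klf10, an early gene of transforming growth factor beta signalling with roles in glucose and lipid metabolism, had 2 sites, 1.62 kb apart. One lay inside the gene, 1.48 to 1.50 kb from the gene end of higher coordinate (chromosome 15, 38299109 to 38299350 in the liver list). It scored 115 in liver (rank 314), 147 in kidney (rank 67) and 133 in heart (rank 66). The other lay just outside that end (38300710 to 38300951 in liver), with a score of 95 in liver (rank 512) and 51 in kidney (rank 813) and no heart peak. The site inside the gene was the higher in both lists that had the pair. Both sites also lay inside the long noncoding RNA gene Gm35248, which overlaps Klf10.

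Klf13 was first known as an activator of a chemokine gene in T cells and has a role in heart development. It had the most regions of the family, 6, spread along its 52.6 kb and just upstream of its start. Liver had a peak at all 6, kidney at 4 and heart at 4. At least 6 liver peaks were found at 11 of 21887 protein-coding genes (0.0503%), at least 4 kidney peaks at 50 (0.228%) and at least 4 heart peaks at 5 (0.0228%). The region 21 kb downstream of the start site was common to all tissues (chromosome 7, 63917777 to 63918018 in the liver list). It scored 105 in liver (rank 405), 128 in kidney (rank 109) and 60 in heart (rank 359). It also lay inside E030018B13Rik, a protein-coding gene model that tied with Klf13 as the nearest protein-coding gene. The other common region, 41.9 kb downstream (63896894 to 63897135 in liver), scored 104, 32 and 75 and ranked 413, 1658 and 251.

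The order of these sites differed between the lists. In liver the 2 common sites were 1 score unit apart and ranked 405 and 413. Among the kidney peaks the 21 kb site was the highest of the gene and the 41.9 kb site the lowest, while in heart the 41.9 kb site was the highest. A site at 14.1 kb was the second-highest of the gene in kidney (score 77, rank 365), the lowest in liver (score 61, rank 1293) and not in the heart list. Sites at 1.24 kb (scores 85 in liver and 46 in kidney) and 27.3 kb (scores 85 in liver and 27 in heart) were each found in 2 tissues. The site 0.3 kb upstream of the start was in the liver list (score 72, rank 941) and the heart list (score 57, rank 394), and not in the kidney list. Whether these orders differ beyond the variation between animals was not tested, since only 1 value per tissue was given.

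**Figure D2:**
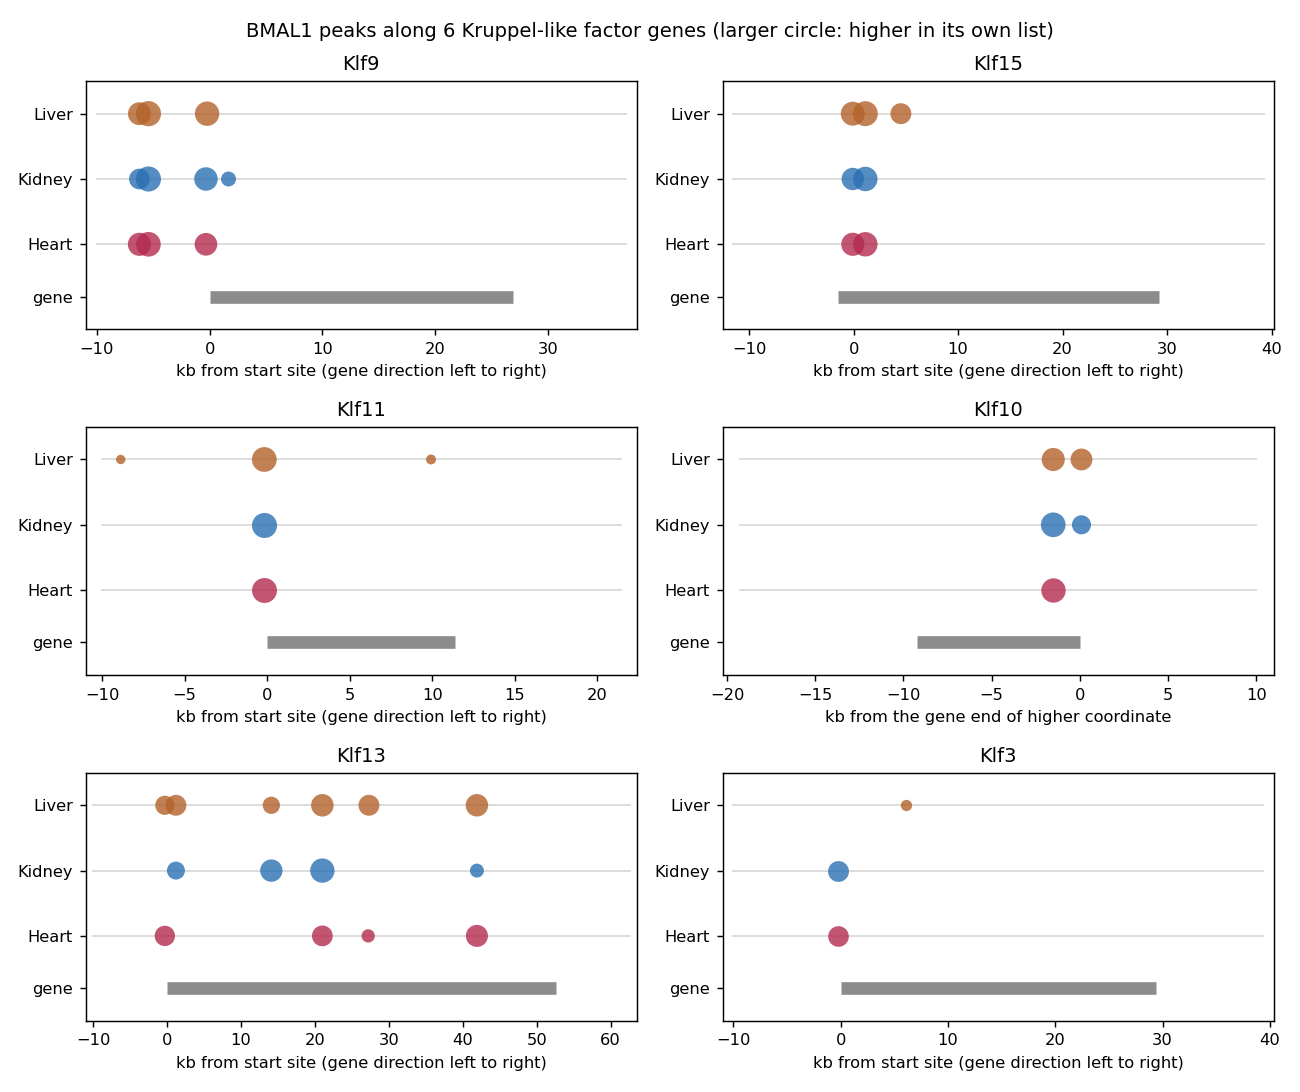
For 6 genes, circles mark the peak centres in each tissue against the distance in kb from the start site (for Klf10, from the gene end of higher coordinate), with the gene as a grey bar; a larger circle stands for a higher place within its own list, and each grey line spans the gene and 10 kb on either side. The largest circles of Klf9 lie 5.39 kb before the start and those of Klf11 at the start, while the 6 regions of Klf13 run from 0.3 kb before the start to 41.9 kb after it.

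Klf3, a repressor that works through the CtBP corepressors in blood and fat cells, had peaks in every list but no region common to all. Kidney and heart shared a site at the start, 0.263 kb upstream in kidney (chromosome 5, 64803165 to 64803352, score 62, rank 563) and 0.27 kb upstream in heart (score 59, rank 370). The liver list had no peak there. Its one peak lay 6.06 kb downstream, inside the gene (64809462 to 64809703, score 35, rank 2707), below the middle of the list. The site at the start lay inside Gm38457, a protein-coding model that overlaps Klf3 and covers its start site. When a peak was given only to its nearest protein-coding gene, Klf3 kept a peak in 1 of the 3 lists.

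The remaining genes had almost no sites. Klf6, an early response gene of tissue injury, had 1 heart peak, 7.62 kb beyond its end (chromosome 13, 5877915 to 5878112), with the lowest score of the heart list, 16 (rank 2215 of 2519). Klf2, which responds to shear stress in endothelium, had no peak, and the nearest lay 79.5 kb away in the liver list. Klf4, a pluripotency factor that also maintains epithelia, had none either, and the nearest lay 46.7 kb away in heart. The repressor gene Klf12 spans 419.7 kb and had no peak. Genes without a peak in any list made up 69.3% of all protein-coding genes and 51.6% of the 2429 protein-coding genes of at least 100 kb.

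**Figure D3:**
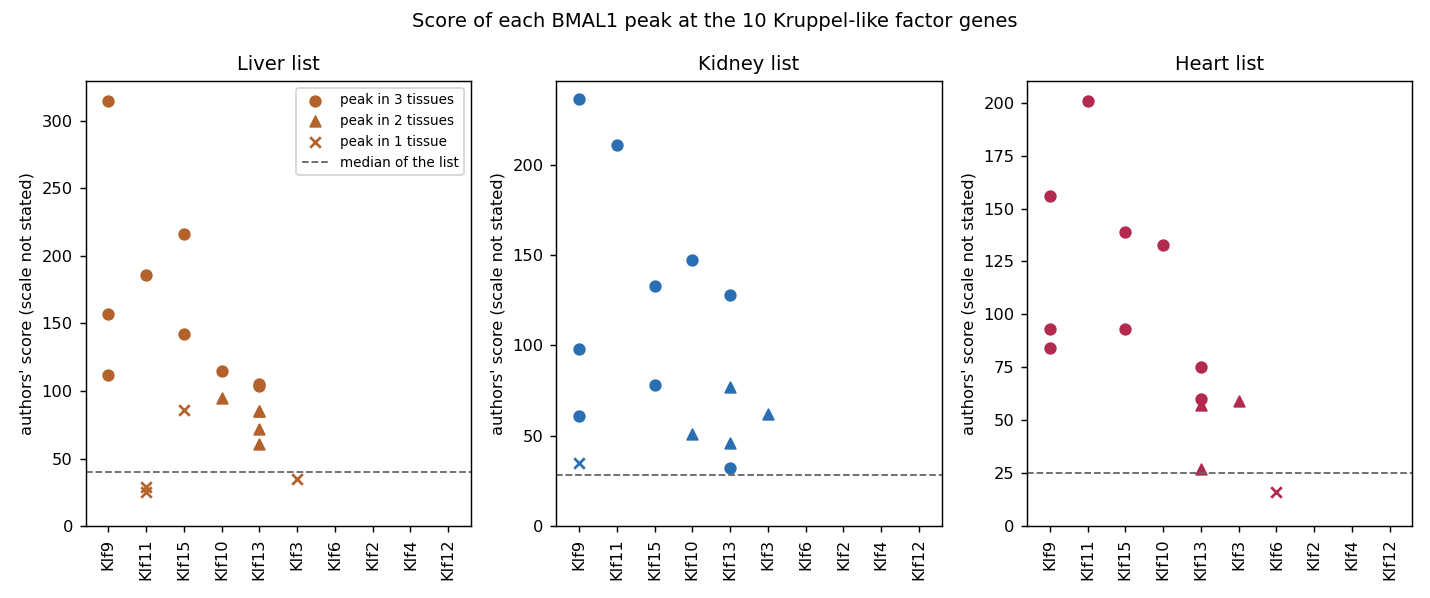
Points show the authors' score of each member peak in each of the 3 lists, with the marker giving the number of tissues that share the site and the dashed line the median score of the whole list; the 3 vertical axes have different, unstated scales. In liver 3 points fall below the list median, 1 at Klf3 and 2 at Klf11; in kidney none does, and in heart the Klf6 peak does.

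Near the limit of 10 kb, the farthest peaks counted were those of Klf11 in liver (8.89 kb) and Klf6 in heart (7.62 kb). The closest peak left out lay 10.1 kb before Klf15 in liver (score 37, rank 2546), followed by a kidney peak 16.5 kb beyond Klf15 (score 51, rank 813). Liver and kidney peaks 19.9 kb from Klf11 and 20.0 kb from Klf3 scored 43 and 16.

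Over the genes with a RefSeq start site, peaks within 1 kb of it made up 4 of 16 in liver (25%), 4 of 12 in kidney (33.3%) and 5 of 12 in heart (41.7%). For all peaks of each list on the chromosomes that the promoter table covers, the shares within 1 kb of any start site were 27.5, 39.3 and 35.8%. Of the 19 regions at these genes, 5 lay within 1 kb of the start site, 3 more than 1 kb upstream and 11 more than 1 kb downstream. Exons and introns were not told apart here.

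Motif letters were then set against the peaks in the 9 promoter windows, with both strands searched. A canonical E-box was present in 4 of 9 windows, against 7.15% of 32851 windows of the same length. Of these 4 genes, Klf11 and Klf15 had a peak over the window and Klf4 and Klf6 had none. Of the 5 windows without it, those of Klf3, Klf9 and Klf13 were overlapped by a peak and those of Klf2 and Klf12 were not. These windows held only part of the peaks that overlapped them. They covered 82 bp of the Klf3 kidney peak and 80 bp of its heart peak. At Klf9 they covered 138, 49 and 59 bp of the liver, kidney and heart peaks. At Klf13 they covered 95 bp in liver and 25 bp in heart. The rest of these peaks was not searched for an E-box. Over all windows the E-box was present in 5.52% of those without a peak and in 52.6% of the 272 overlapped in all 3 lists. The variant CACGCG was found in Klf9, Klf11 and Klf15, and in 9.27% of all windows. It was present in 44.9% of windows overlapped in all 3 lists and 7.76% of those without a peak. In Klf9 the variant at -197 lay inside the liver and heart peaks and outside the kidney peak. The GC-box GGGCGG, a sequence that the family itself binds, was found in 7 of the 9 windows, with 6 matches in Klf3, against 35.7% of all windows. Of windows overlapped in all 3 lists 82.0% held it, and of those without a peak 33.0%. The variant CACGTT and the D-box TTATGNAA were found in none of the 9, against 4.68% and 3.38% of all windows, and the CACCC box CCACCC in 3, against 31.5%. Member windows were rich in G and C, with a median of 72.0% against 52.7% over all windows, and the part of base composition in these shares was not tested.

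**Figure D4:**
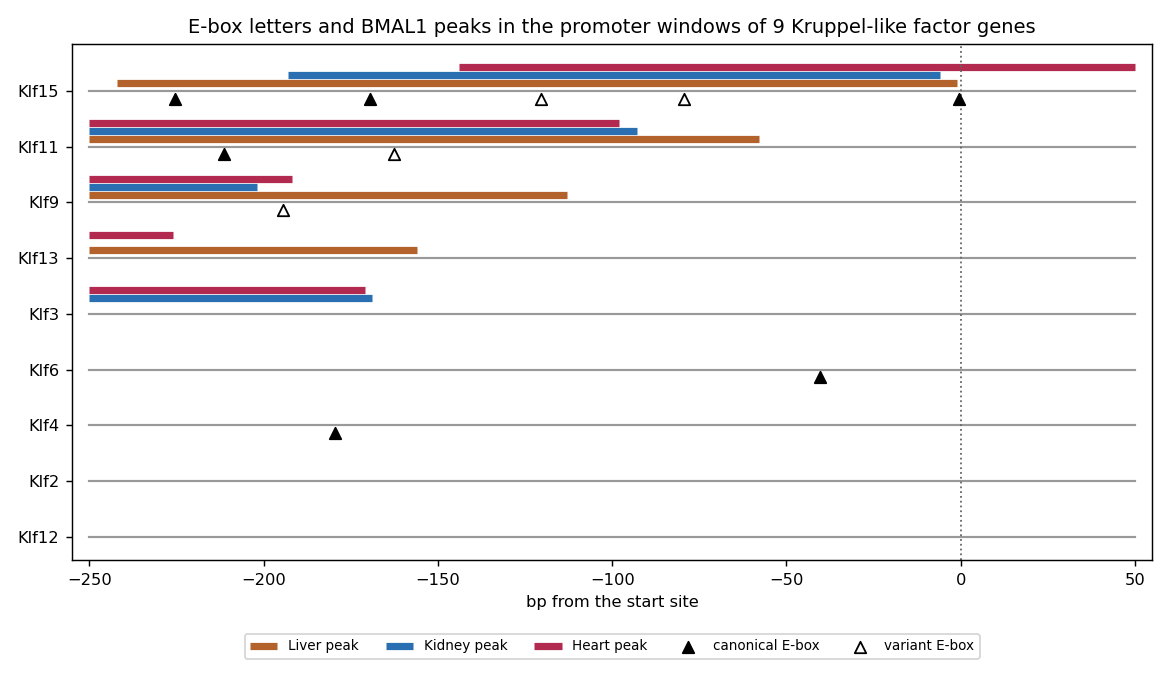
For 9 genes, the horizontal axis is the distance in bp from the start site; coloured bars are the parts of liver, kidney and heart peaks inside the window, filled triangles are canonical E-boxes and open triangles variant E-boxes. Klf15 carries 3 filled triangles, of which the liver peak covers 2 and the kidney and heart peaks 1 each, and the filled triangles of Klf6 and Klf4 have no bar above them.

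Peaks also lay at some of the remaining genes of the Kruppel-like and Sp families. Of 16 such genes, 4 had a liver peak, 6 a kidney peak and 5 a heart peak, and 2 had a region common to all tissues. Over all protein-coding genes these shares were 18.1, 18.0, 11.5 and 3.09%. One of these was Klf16, with a site 0.693 to 0.739 kb outside its end of higher coordinate. It scored 171 in liver (rank 88), 86 in kidney (rank 286) and 71 in heart (rank 282). The best ranks at Sp1 were 3576 in liver and 1321 in heart. The one peak at Sp3 ranked 1123 in heart and that at Sp4 ranked 3164 in kidney. Sp5 reached rank 938 in kidney. Sp6 had a kidney peak at rank 3323, nearest to another gene, and a heart peak at rank 1321. Klf1 had peaks of low score in liver (rank 4095) and kidney (rank 3480), both nearest to other genes.

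Genes that work with the family were read in the same way. Of 13 cofactor genes, 3 had a liver peak, 4 a kidney peak and 3 a heart peak, beside 18.1, 18.0 and 11.5% of all protein-coding genes. Fhl3, which encodes a LIM-domain partner of Klf3, was the one with a common region. That region lay 2.16 to 2.19 kb upstream of the gene, nearest to Utp11, with ranks of 143, 139 and 723. Sin3a, the corepressor of Klf9, Klf10, Klf11 and Klf13, ranked 2474 in kidney and 723 in heart at separate sites. Of 15 genes known to lie downstream of Kruppel-like factors, 9 had a liver peak, 8 a kidney peak and 5 a heart peak, beside the same 18.1, 18.0 and 11.5%. The list includes clock genes that BMAL1 is known to bind. The 4 with a common region were the clock genes Per1, Nr1d1 and Dbp, and Gpt, the alanine aminotransferase gene that Klf15 activates, whose site inside the gene ranked 197 in liver, 222 in kidney and 159 in heart. Bcat2, a branched-chain aminotransferase gene under Klf15, had a site upstream of the gene in kidney (0.71 kb, rank 487) and heart (rank 520). Its liver peak (rank 746) lay elsewhere, inside the gene. Kidney also had a peak inside the gene (rank 1473), which lay near the liver peak without overlapping it.

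The gene whose 3 best ranks were most like those of Klf9 could not be told from its neighbours. Ell3, Serf2 and Serinc4 lie together and shared the same peaks, with best ranks of 29, 29 and 45 in liver, kidney and heart. Their distance from Klf9 over the 3 lists was 0.638 percentage points of rank.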

How the data were processed

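BMAL1 ChIP-seq was measured in liver, kidney and heart of 3 mice per tissue, with matched input. The authors deposited 1 list per tissue with a position and a whole-number score per peak, made from all ChIP and input replicates together, per the labels. Bowtie2, SAMtools, HOMER and the build mm10 are named in the submitters' processing notes with no version or role. The sources used here do not state what the deposited score means or how peaks were filtered.

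Genes came from a RefSeq table of GRCm38.p6, the assembly that mm10 names (21887 protein-coding genes on chromosomes 1 to 19, X and Y). All members and the 44 other listed genes matched a symbol. Peaks were assigned by their centre and merged into regions at an overlap of 1 bp or more. Coordinates count from 1. Processing used Python 3.11.15 with pandas 2.3.3, and assignment, merging and motif search were tested on made-up peaks. Members and gene lists were chosen with earlier results of these data known. All members are named. Of the other Kruppel-like and Sp genes, those with a peak are named except 1 (the first list), and of the cofactor and downstream lists at most 5 each, by best rank. A gene nearer to a member peak is named beside it. Naming Utp11 beside a cofactor's peak was decided after its values were seen. Alternatives changed the distance, the peaks kept, the overlap and the assignment. Values of the 1 unnamed gene of the first list, which has the other region common to all tissues, are not reported here.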

Additional observations from a re-analysis of the deposited data

How the results depend on the processing

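None of the 49 values of the counts of genes, peaks and regions under the alternatives moved by more than 1.5 times. Members with a peak numbered 5 to 6 in liver, 5 to 6 in kidney and 6 to 8 in heart. Member peaks numbered 14 to 22 in liver, 11 to 19 in kidney and 10 to 16 in heart, lowest within the top 1000 peaks of each list for liver and kidney and within 1 kb or 5 kb for heart, and highest within 50 kb. Regions ranged from 16 to 31 and regions common to all tissues from 7 to 9. Leaving out the heart list, an alternative chosen after seeing the data, gave 20 regions. Of the counts of lists per gene, 54 of 60 stayed within that limit. The exceptions were Klf6, whose heart peak was absent within 1 kb and 5 kb, among the top 1000 peaks and in the upper 50% of the list; Klf3, with a peak in 1 list when peaks went to the nearest protein-coding gene; and Klf4, with 1 heart peak within 50 kb. No paired analysis was possible because each list pools the replicates. Read depth, and so the weakest site each list could hold, is unknown, and a longer list can hold more weak peaks.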
